A study of Rattus norvegicus with 3 samples.

Results

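The proteasome genes were taken as every gene whose symbol begins with Psm, a letter from a to g and a digit. The rule gave 48 of the 30957 genes listed for each rat, with 1 row per symbol, and 46 of them had a mean FPKM of at least 1. FPKM is the number of fragments per kilobase of gene per 1000000 fragments, so levels of different genes can be set beside each other. The 48 genes cover the catalytic core particle, its immunoproteasome variants, the regulatory particle, activators, an inhibitor and assembly chaperones. Psme3, an activator gene that the rule would also take, had no row that could be matched and was not analysed here.

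RNA was sequenced from the motor cortex of 3 male Sprague-Dawley rats, numbered 12, 24-4 and 33, with 1 library per rat. Each animal went through cerebral ischemia followed by reperfusion (blood supply to the brain is stopped and then restored) and received electroacupuncture, a current passed through needles, at the GB20 (Fengchi) point. The labels give a time of 8 weeks without its starting point, and do not state the animals' age, the hemisphere or the way ischemia was made. Controls of any kind were not analysed here, so the values describe levels and their spread between treated animals and test no effect of a treatment.

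The proteasome is the main protease of the cytosol and nucleus, and degrades proteins tagged with ubiquitin. A barrel, the 20S core, holds the proteolytic sites inside its beta rings and is gated by its alpha rings. The 19S regulatory particle binds the tagged protein, unfolds it with a ring of ATPases and feeds it into the barrel, and the complete assembly is the 26S proteasome. Interferon-gamma and related signals induce 3 alternative catalytic subunits, Psmb8, Psmb9 and Psmb10, which form the immunoproteasome, and the PA28 activator subunits Psme1 and Psme2. In the brain the immunoproteasome is best known from microglia, while neurons use mostly the constitutive form.

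Values are given below in the order rat 12, rat 24-4, rat 33. Sequencing depth, as far as the values allow an estimate, was 15330000, 17230000 and 13000000 fragments. They differed in cell type markers. Summed FPKM of 10 microglial markers was 177, 303 and 500, while that of 7 markers of glutamatergic neurons was 2061, 2160 and 1030. Summed FPKM of 8 choroid plexus markers was 3359, 130 and 13292, and the share of summed FPKM from the mitochondrial genome was 26.6%, 14.4% and 20.9%. In such bulk tissue, fewer cells of a type and less RNA per cell cannot be told apart.

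Constitutive proteasome genes were abundant and differed at most 1.78-fold between the 3 rats, whereas the immunoproteasome and PA28 genes were scarcer and spread more widely. The 31 measured genes of the constitutive 20S core and 19S particle had a median FPKM of 60.5, 76.3 and 67.0. The 5 immunoproteasome and PA28 genes had a median of 4.82, 7.02 and 10.9. The highest rat exceeded the lowest by a median of 1.33-fold over the 31 constitutive genes (range 1.02 to 1.78), by 2.92-fold over the 5 genes (range 2.26 to 5.11) and by 1.63-fold over all 13754 genes whose mean FPKM was at least 1. Those 5 were the only ones of the 46 proteasome genes with a highest value at least 2-fold over the lowest, a spread that 30.0% of all genes had. Under both other scalings given below Psme4 reached 2-fold as well, and under that to the constitutive 20S genes Psme2 did not.

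**Figure D1:**
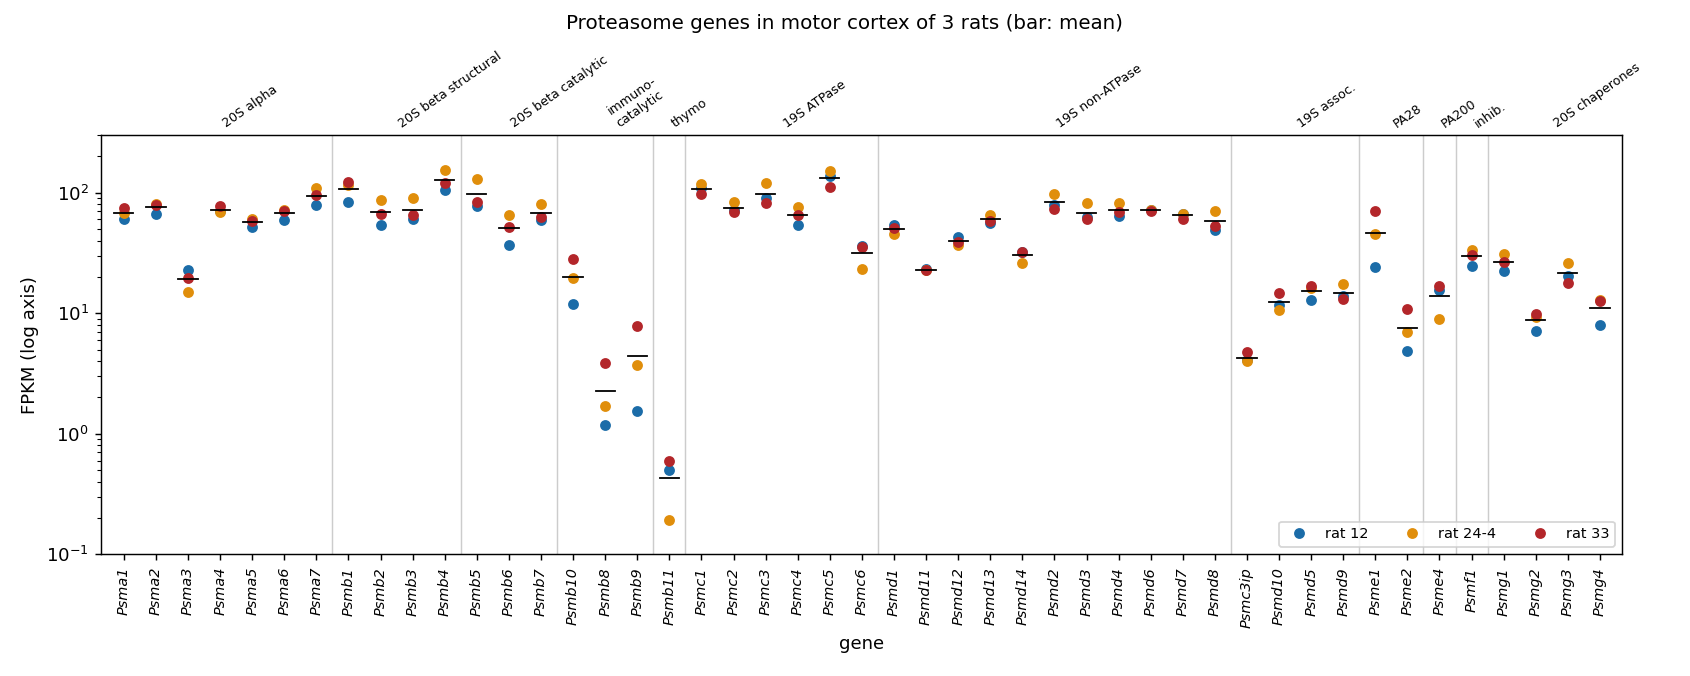
FPKM (log axis) of the 47 proteasome genes listed above 0 in any rat, grouped by role, with 1 point per rat and a bar at the mean of the 3 rats. Points of most core and 19S genes lie close together near 20 to 150, while Psmb8 and Psmb9 lie below 10 and spread widely.

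A one-sided variance test in limma asked whether a gene varied between rats more than genes of its level, with Benjamini-Hochberg adjustment over all genes. That test called 0 of the 46 genes at an adjusted p of 0.05, against 0.102% of all genes, and 1 of the 46 (Psmb9) at an unadjusted p under 0.05, against 5.96% of all genes. The smallest adjusted p was 0.784 for Psmb9, followed by 0.855 for Psme1. With calls this rare among all genes, 0 of 46 does not show that the proteasome genes were even. The patterns between rats given below are therefore descriptions of these 3 animals.

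The alpha ring forms the outer gate of the core. Summed FPKM of its genes was 409, 476 and 475. Psma7 was its highest member by mean, with an FPKM of 78.6, 110 and 95.5. Psma3 was the lowest member above 0, at 22.7, 15.1 and 19.7, and was highest in rat 12, unlike its ring partners. A row annotated as a Psma3-like gene, LOC100361067, had 29.6, 20.9 and 31.4, so fragments may be split between near-identical sequences and the level of Psma3 is uncertain. Together the pair reached 52.3, 36.0 and 51.1, still with rat 24-4 lowest, while Psma5 had 52.0, 61.0 and 58.2. Psma8, which replaces an alpha subunit in testis, was listed at 0 in all 3 rats.

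Of the beta ring, the structural subunits Psmb1, Psmb2, Psmb3 and Psmb4 carry no active site. By mean, Psmb4 was the highest, at 105, 154 and 121, and Psmb2 the lowest, at 54.0, 86.9 and 67.0. Both were lowest in rat 12 and highest in rat 24-4. The constitutive catalytic subunits showed the same order. Psmb5, which carries the chymotrypsin-like site, had an FPKM of 78.0, 131 and 83.2. Psmb6, with the caspase-like site, had 36.5, 65.0 and 51.5, and Psmb7, with the trypsin-like site, had 59.4, 81.0 and 62.4. The Psmb7 locus overlaps that of Nek6 (8.66, 13.9 and 19.2) on the opposite strand over 17494 bp, so reads of the 2 genes could be mixed if counting ignored strand.

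Rat 24-4 was the highest in 6 of the 7 constitutive beta genes and in 21 of the 31 constitutive genes, against 34.2% of all genes. The exception among the beta genes was Psmb1 (84.3, 116 and 123), highest in rat 33. All 7 beta genes were lowest in rat 12, against 37.9% of all genes. These orders move with the library's scale. When mitochondrial transcripts were dropped and all other values rescaled to 1 sum, which shifts the median of all genes by 0.40, 0.20 and 0.30 on the log2 scale, the 3 counts became 6 of 7 and 14 of 31 (23.2% of all genes) and 4 of 7 (26.9% of all genes). Scaled to the geometric mean of the constitutive 20S genes, they became 6 of 7 and 11 of 31 (16.4% of all genes) and 3 of 7 (19.9% of all genes). All 7 beta genes, and 14 of the 31, belong to the genes that set this last scale. Their counts under it are thus no independent check. Mitochondrial share was highest in rat 12 and lowest in rat 24-4, and its part in the result was not tested beyond that rescaling.

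In the 19S particle, the ATPases Psmc1 to Psmc6 form the unfolding ring. Psmc5 was the highest proteasome gene of all by its mean, with an FPKM of 137, 151 and 111. Psmc6 was the lowest ATPase, at 35.9, 23.4 and 35.1, with rat 24-4 below the other rats. Within each rat the median log2(FPKM + 1) of the ATPases stood above that of the 11 non-ATPase genes by 0.48 ± 0.10 (SD, n = 3), in 3 of 3 rats (exact sign-flip permutation test, two-sided, p = 0.25, the smallest that 3 rats can give, adjusted p = 0.321 over 9 pairs of classes or genes).

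Among the non-ATPase genes, Psmd2, a scaffold that receives ubiquitin-like proteins, was the highest at 79.6, 98.4 and 74.0. Psmd11, a lid subunit that joins the 19S to the core, was the lowest, at 23.2, 22.9 and 22.8. It also had the smallest coefficient of variation of the 46 genes, 0.931%. Psmd6, another lid subunit, was similarly even at 71.8, 71.4 and 70.4. Psmd14, the deubiquitinase that removes the ubiquitin chain, had 32.1, 26 and 32.4, with rat 24-4 lowest. Psmd4, a ubiquitin receptor, had 64.7, 82.9 and 69.5, with rat 24-4 highest. Rat 33 was lowest in 9 of the 17 ATPase and non-ATPase genes, against 28.9% of all genes, and highest in 1, Psmd14, against 42.0%.

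Core and regulatory particle were close in level. The median of the 14 measured constitutive core genes exceeded that of the 17 genes of the 19S by 0.13 ± 0.16 in log2(FPKM + 1), higher in 2 of 3 rats (exact sign-flip permutation test, p = 0.5, adjusted p = 0.5625). The alpha ring differed from the beta ring by -0.08 ± 0.28, lower in 2 of 3 rats (exact sign-flip permutation test, p = 0.75, adjusted p = 0.75). Neither of these differences of medians was larger than the spread between rats. Summed FPKM was 887, 1200 and 1048 for the constitutive core and 1101, 1241 and 1054 for the 19S.

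By their median, the 4 assembly chaperone genes of the 20S were lower than the core genes. The 20S assembly chaperones Psmg1 to Psmg4 pair alpha subunits and guide ring formation. Psmg1 had an FPKM of 22.4, 31.3 and 26.4 and Psmg2, its partner, 7.11, 9.34 and 9.80. The median of the 4 lay below that of the core by 2.14 ± 0.06 in log2(FPKM + 1) in 3 of 3 rats (exact sign-flip permutation test, p = 0.25, adjusted p = 0.321), and this distance had the smallest SD of the 9 compared. Pomp, a 20S assembly factor outside the symbol rule, had 28.1, 45.4 and 37.4. Together with a similar row, LOC100911238, it reached 85.9, 118 and 100, so its level is uncertain. The median FPKM of the core was 60.2, 81.0 and 72.5. The 19S assembly chaperone Psmd5 had 12.9, 16.3 and 16.9. Psmc3ip, a meiotic recombination factor that the symbol rule takes in although it is no subunit, had 4.07, 4.00 and 4.8.

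Of the remaining regulators, Psme4, the activator PA200, had 15.7, 8.91 and 16.7, and the low value of rat 24-4 went against the beta ring, which was highest there. Psmf1, the inhibitor PI31, had 24.7, 33.8 and 30.5, lowest in rat 12. Psmb11, the catalytic subunit of the thymus, had 0.503, 0.192 and 0.593, or about 7, 3 and 7 fragments over its single 906-bp locus, which is near the limit of detection.

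The 3 immunoproteasome subunits were each lowest in rat 12 and highest in rat 33, and stood at very different levels. Psmb8, which takes the place of Psmb5, had an FPKM of 1.19, 1.72 and 3.88 (chromosome 20, 3990613 to 3993769, ENSRNOG00000000456, Rnor_6.0). Psmb9, which takes the place of Psmb6, had 1.54, 3.75 and 7.86 (chromosome 20, 3973420 to 3978845, ENSRNOG00000000459). Psmb10, which takes the place of Psmb7, had 12.0, 19.8 and 28.0 (chromosome 19, 37909546 to 37912027, ENSRNOG00000019494). Psmb10 thus lay well above the other two in every rat. Rat 33 exceeded rat 12 by 3.26-fold in Psmb8, 5.11-fold in Psmb9 and 2.33-fold in Psmb10, with unadjusted p of 0.172, 0.0362 and 0.120 and adjusted p of 0.993, 0.784 and 0.964 in the limma variance test.

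For a transcript of 1 kb, the FPKM of Psmb8 would rest on 18.3 fragments in rat 12 (exact Poisson 95% interval 10.9 to 28.8), 29.6 in rat 24-4 (19.9 to 42.3) and 50.4 in rat 33 (37.5 to 66.4). That of Psmb9 would rest on 23.6 (15.0 to 35.2), 64.7 (49.9 to 82.5) and 102 (83.3 to 124). For Psmb8 the interval of rat 24-4 overlapped those of rats 12 and 33, so its place between them lies within counting error. For both genes the intervals of rats 12 and 33 did not overlap, and the share of all genes for which this holds was not computed. The intervals cover counting error only, for an assumed length, and do not measure the spread between animals.

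The PA28 genes showed the same order of rats. Psme1 had 24.0, 45.3 and 70.1 (chromosome 15, 34256071 to 34258947, ENSRNOG00000019041) and Psme2, its partner in the same ring, 4.82, 7.02 and 10.9 (chromosome 15, 34265557 to 34269851, ENSRNOG00000019246). Rat 33 exceeded rat 12 by 2.92-fold and 2.26-fold. In rat 33 Psme1 was as abundant as core genes such as Psma6 (59.6, 72.3 and 70.0). The level of Psme1 stood above that of Psme2 by 2.40 ± 0.26 in log2(FPKM + 1), in 3 of 3 rats (exact sign-flip permutation test, p = 0.25, adjusted p = 0.321). Psme2 made up 16.7%, 13.4% and 13.5% of the pair's FPKM. The Psme1 locus overlaps Emc9 on the opposite strand over 2574 bp, and Emc9 had 2.70, 3.71 and 2.09, far below Psme1.

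All 5 genes were lowest in rat 12 and highest in rat 33, as were 4 other proteasome genes (Psma1, Psmb1, Psmd5 and Psmg2), making 9 of 46, against 21.3% of all genes. Of the 31 constitutive genes 2 had that order, and of the 17 in the 19S none. The 5 kept it under the mitochondrial rescaling and when scaled to the constitutive 20S genes. All 5, and no other proteasome gene, combined that order with at least 2-fold between rats 33 and 12, against 9.13% of all genes; scaled to the 20S genes, 4 of the 5 did, without Psme2. Their median difference from the mean of the rats was -0.61, 0.00 and 0.67 in log2(FPKM + 1), beside -0.28, 0.35 and -0.05 for the constitutive beta ring, 0.01, 0.13 and -0.05 for the 19S, and -0.06, 0.01 and 0.07 for all genes.

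**Figure D2:**
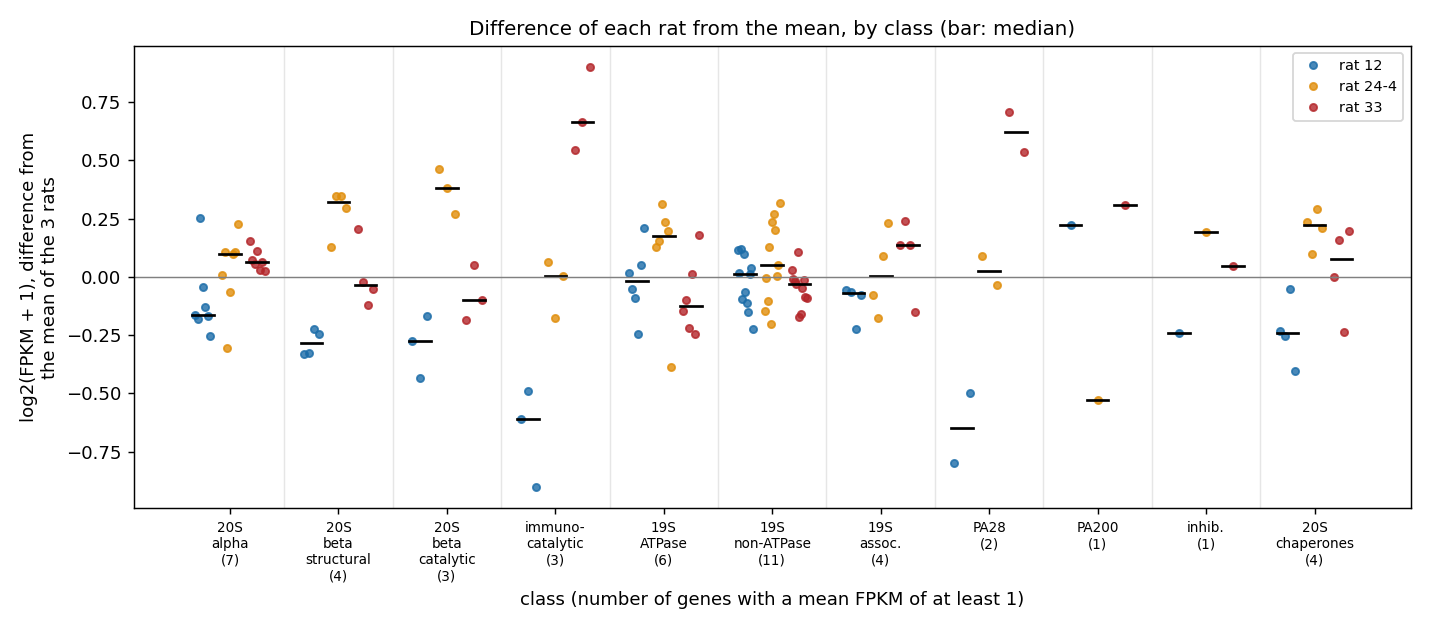
Difference of log2(FPKM + 1) in each rat from the mean of the 3 rats, for the 46 proteasome genes whose mean FPKM was at least 1. Each point is 1 gene in 1 rat and each bar the median of a class. The immunoproteasome and PA28 genes separate rat 12 from rat 33, most constitutive beta genes place rat 24-4 highest, and in rats 12 and 24-4 the medians of the 19S classes lie nearer 0 than those of the beta classes, though single 19S genes such as Psmc6 lie as far out.

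Each immunoproteasome gene was below the constitutive gene whose subunit it replaces, by a distance that differed between the pairs. Psmb8 lay below Psmb5 by a log2(FPKM + 1) difference of -4.96 ± 0.77, Psmb9 below Psmb6 by -3.42 ± 0.74 and Psmb10 below Psmb7 by -1.77 ± 0.57. Each held in 3 of 3 rats, and each exact sign-flip permutation test gave p = 0.25 (adjusted p = 0.321). The median of the 5 immunoproteasome and PA28 genes lay below that of Psmb5, Psmb6 and Psmb7 by -3.05 ± 0.55, again in 3 of 3 rats with the same p. In FPKM, Psmb5 was 65.5, 76.2 and 21.5 times Psmb8, while Psmb7 was 4.94, 4.09 and 2.23 times Psmb10.

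As a share of the FPKM of each pair, Psmb8 made up 1.5%, 1.3% and 4.45%, Psmb9 4.04%, 5.46% and 13.2%, and Psmb10 16.8%, 19.6% and 31.0%. The 3 together made up 7.82%, 8.36% and 16.8% of all catalytic subunit transcripts. A share within a rat does not depend on the library's scale. By this measure rats 12 and 24-4 were close and rat 33 stood above both, although the FPKM of all 3 genes in rat 24-4 was above that in rat 12. Transcript shares say nothing of how many assembled particles hold each subunit.

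**Figure D3:**
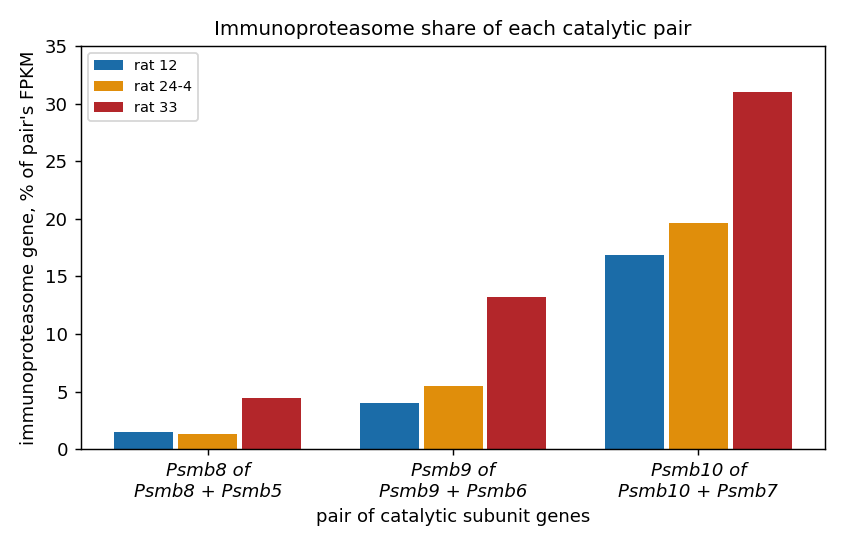
Percent of the summed FPKM of each catalytic pair (immunoproteasome gene and the constitutive gene whose subunit it replaces) that came from the immunoproteasome gene, with 1 bar per rat. Rat 33 has the highest bar in each pair, up to 31.0% for Psmb10.

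Promoter sequences of the 5 genes are shown because these members share an order of rats that few constitutive ones have. Windows came from RefSeq on assembly GRCr8, and 43 of the 48 genes matched. In the 250 bases before to 50 bases after each start, both strands were searched for GAAA, any 2 bases (NN) and again GAAA, the core of the interferon-stimulated response element through which interferon regulatory factors act. It was found in 3 of the 5 genes, in 4 of 38 other proteasome genes (Psma4, Psmb3, Psmd7 and Psmg4) and in 3.92% of 33469 promoters. The lines below give 130 bases before the start and the first 20 bases of the transcript, 5′ to 3′ on the gene's strand, with each match in capitals (read with TTTC in place of GAAA where it lies on the other strand). Tap1, the peptide transporter gene next to Psmb9, is added.
Psmb8 (chr20:4657012-4657161, minus strand): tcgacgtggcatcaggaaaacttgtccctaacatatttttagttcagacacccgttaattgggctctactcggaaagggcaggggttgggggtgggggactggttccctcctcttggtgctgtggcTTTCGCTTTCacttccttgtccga
Psmb10 (chr19:50743273-50743422, minus strand): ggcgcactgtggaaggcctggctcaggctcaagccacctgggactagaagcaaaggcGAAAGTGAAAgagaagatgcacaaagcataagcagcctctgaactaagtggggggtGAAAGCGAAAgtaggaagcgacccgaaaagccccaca
Psme2 (chr15:33052732-33052881, minus strand): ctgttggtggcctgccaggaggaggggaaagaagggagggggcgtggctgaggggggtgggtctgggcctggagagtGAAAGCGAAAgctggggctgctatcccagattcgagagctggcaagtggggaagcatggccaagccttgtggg
Psme1 (chr15:33038841-33038990, plus strand): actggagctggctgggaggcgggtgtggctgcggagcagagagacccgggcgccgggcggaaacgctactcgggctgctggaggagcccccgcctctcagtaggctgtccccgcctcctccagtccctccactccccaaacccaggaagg
Psmb9 (chr20:4668870-4669019, plus strand): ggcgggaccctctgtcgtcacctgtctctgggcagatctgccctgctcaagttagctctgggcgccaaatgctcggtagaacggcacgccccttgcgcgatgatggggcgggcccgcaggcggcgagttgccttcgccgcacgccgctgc
Tap1 (chr20:4668524-4668673, minus strand): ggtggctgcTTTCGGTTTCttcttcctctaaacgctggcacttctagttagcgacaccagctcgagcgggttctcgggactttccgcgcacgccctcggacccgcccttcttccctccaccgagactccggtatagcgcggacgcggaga

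Psmb10 held 2 matches, at -73 to -64 and -17 to -8 from its start, and Psme2 held 1 at -53 to -44. In Psmb8 the match spanned the start itself, from -4 to 6. Psme1 and Psmb9 held none in these windows. Tap1 held 1 at -121 to -112 from its own start. The RefSeq starts of Psmb9 and Tap1 are 457 bases apart and point away from each other, which puts that match 336 to 345 bases before the start of Psmb9. In the deposited annotation the 2 loci are 189 bp apart on opposite strands, and Psmb8 lies 943 bp from Tap1 on its other side. A match describes letters in the window and is neither a bound site nor a cause.

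A second motif was searched in the same windows. TGACNNNGC, the core of the antioxidant response element that Nfe2l1 and Nfe2l2 recognise, was found on either strand in none of the 5 genes, in 8 of the 38 others (Psma3, Psmb2, Psmb5, Psmb6, Psmd1, Psmd3, Psmd9 and Psme4) and in 12.1% of all promoters. It lay at -60 to -52 in Psmb5 and at -24 to -16 in Psmb6, in capitals here, while Psmb7 held none. CCAAT was found in 2 of the 5, 19 of the 38 and 37.5%.
Psmb5 (chr15:32047360-32047509, minus strand): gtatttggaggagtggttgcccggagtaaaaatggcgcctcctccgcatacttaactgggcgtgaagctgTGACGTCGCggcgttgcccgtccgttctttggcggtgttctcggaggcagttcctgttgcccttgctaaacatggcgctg
Psmb6 (chr10:55737758-55737907, plus strand): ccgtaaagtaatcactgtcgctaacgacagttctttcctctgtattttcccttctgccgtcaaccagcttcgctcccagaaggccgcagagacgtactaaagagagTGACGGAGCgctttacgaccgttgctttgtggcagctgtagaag

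Genes that work with the proteasome were read from further lists. A list of other proteasome genes had 11 matched. It held the 19S subunits Adrm1 and Shfm1, which the symbol rule leaves out, and assembly factors, deubiquitinases and regulators. Of the 11, 1 was lowest in rat 12 and highest in rat 33 with rat 24-4 between, against 21.3% of all genes. The 11 had median differences from the mean of -0.07, 0.08 and 0.04. Nfe2l1, a transcription factor that raises proteasome genes when proteasome activity is low, was the highest of them by mean, at 75.0, 71.4 and 54.4. Uchl5, a deubiquitinase on the 19S, was the lowest by mean, at 9.37, 4.27 and 7.46. Nfe2l2, the regulator of the oxidative stress response, had the widest spread, at 10.6, 9.44 and 24.3. Of 12 genes for ubiquitin and substrate delivery, 4 had that order, against the same 21.3%. Uchl1, an abundant neuronal deubiquitinase, was the highest there at 570, 920 and 540, with rat 24-4 highest as in most of the beta ring.

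MHC class I peptide loading takes up the peptides that proteasomes release. Of its 8 genes with a mean of at least 1, rat 33 was highest in 8, against 42.0% of all genes, and 5 had rat 12 lowest and rat 24-4 between, against 21.3%. Calr, a chaperone of the endoplasmic reticulum, was the highest gene by mean, at 253, 321 and 369. Tap1, which lies between Psmb8 and Psmb9 on chromosome 20, spread most among the 8, at 1.16, 2.0 and 7.10. Nlrc5, the transactivator of class I genes, fell short of that mean, at 0.397, 0.273 and 1.79, and was also highest in rat 33. Of 12 interferon signalling genes, 8 had the order of the 5 genes, against 21.3% of all genes, and 9 were highest in rat 33, against 42.0%. Irf7 spread most at 1.75, 7.61 and 37.8. By mean, Irf1 was the lowest at 3.18, 4.95 and 10.8, and the kinase gene Jak1 was the highest, and even, at 57.5, 54.8 and 59.2. The limma variance test called 0 of the tested genes in each of these 4 lists, against 0.102% of all genes.

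Cell type markers also differed between the rats. Of 10 microglial markers, 10 were lowest in rat 12 and highest in rat 33, an order that 21.3% of all genes had, and none was listed at 0. Their median differences from the mean were -0.71, 0.03 and 0.74, beside -0.61, 0.00 and 0.67 for the 5 genes. Astrocyte and oligodendrocyte markers had that order in 5 of 8 genes each. Their median differences were -0.49, 0.14 and 0.58 for astrocytes and -0.44, -0.08 and 0.59 for oligodendrocytes. Markers of glutamatergic and GABAergic neurons had that order in 0 of 7 and 0 of 6. Their median differences were 0.52, 0.42 and -0.92 for glutamatergic and 0.51, 0.31 and -0.53 for GABAergic neurons. Of 7 endothelial markers 2 had that order and 6 were highest in rat 33, against 42.0% of all genes. Median differences of the 7 were -0.14, -0.19 and 0.40. Choroid plexus markers had that order in 0 of 8, and the limma variance test called 6 of them, against 0.102% of all genes. Of 10 lymphocyte markers 3 reached a mean FPKM of 1, and 0 of these 3 had that order. The summed FPKM of the 10 was 7.08, 11.2 and 27.2. Cd4 made up 4.17, 4.11 and 16.6 of it and Ptprc 1.83, 1.14 and 7.07. The T cell marker Cd3e made up 0.116, 4.81 and 0.477, while Cd3d and Cd3g stayed below 1 in each rat. The B cell marker Ms4a1 was listed at 0 in rats 12 and 24-4 and at 0.125 in rat 33. The part of these cell types in the proteasome results was not tested.

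**Figure D4:**
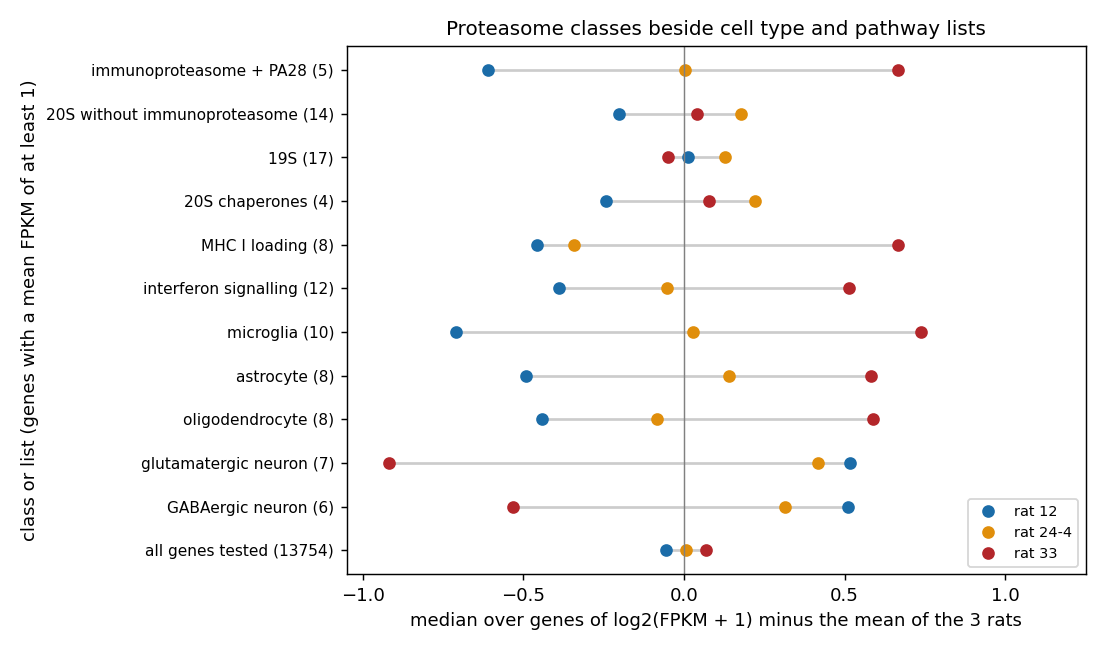
Median over genes of the difference of log2(FPKM + 1) from the mean of the 3 rats, 1 point per rat, for proteasome classes, related pathways and cell type markers, with the number of genes in brackets. Rats 12 and 33 lie far apart for immunoproteasome and PA28, class I loading, interferon signalling and glial lists, close together for the core and 19S, and in the opposite order for neuronal lists.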

How the data were processed

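The deposited values were FPKM per gene, 1 file per rat. The authors obtained FPKM with a script from normalized fragment counts, according to the series' design text, and HISAT2 2.0.4, StringTie 1.3.0 and the build Rnor_6.0 stand in the submitters' processing notes without their roles. How counts were normalized and whether strand was used is not given in the sources used here. Abundant transcripts in a library lower its other FPKM values, and fold differences on the log2(FPKM + 1) scale are understated for low genes.

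Loci spanning up to 400 bp gave the estimate of depth: their low FPKM values were whole multiples of 1 fragment's worth (tolerance 0.02) in 93.9%, 93.4% and 93.6% of values in rats 12, 24-4 and 33. No 2 files held equal values throughout. An intercept was fitted to log2(FPKM + 1) of the 13754 genes whose mean FPKM was at least 1 in limma 3.58.1 (R 4.3.3), with a trended robust prior (7.96 degrees of freedom). Residual over prior variance was compared with the F distribution, one-sided, with Benjamini-Hochberg adjustment at 0.05. The procedure was tested on simulated data. Levels within rats were compared by exact sign-flip permutation, adjusted over 9 pairs. Promoter windows were RefSeq's on GRCr8, while coordinates of genes are those of the files. Other steps ran in scipy 1.17.1, pandas 2.3.3, numpy 2.4.6 and Python 3.11.15. The p-value of the variance test sets a gene's spread between these 3 animals against that of genes of its level. The sign-flip p is the share of sign patterns over the 3 rats that give a mean difference at least as large.

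The members, the lists and the comparisons were chosen with earlier results of these data known. Genes named with values were the immunoproteasome, PA28 and constitutive catalytic genes, other activators and the inhibitor, the highest and lowest member of each class, members listed at 0 or spread at least 2-fold, and the highest, lowest and most spread gene of the pathway lists, of which 1 is not reported here, nor is 1 of the 4 motifs searched. Psma5, Psma6, Psmb1, Psmd4, Psmd6, Psmd14 and Pomp were added after their values were seen. Cell type lists are given by counts, sums or median differences, and single markers are named for lymphocytes only. Of these, Cd4, Ptprc, Cd3d and Cd3g were added after their values were seen. The alternatives tried were other pseudocounts, filters, priors, summaries and scalings, and leaving out each rat.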

Additional observations from a re-analysis of the deposited data

How the results depend on the processing

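The number of variable genes depended on the processing. It was 14 as reported, 23 with a pseudocount of 0.1 and 0 with a filter at a mean FPKM of 0.1, with no filter, with a prior that was not robust, or after dropping mitochondrial transcripts and rescaling all other values. Leaving out 1 rat gave 0 to 101 (101 without rat 12, 0 without rat 24-4 and 66 without rat 33). The counts at an unadjusted p under 0.05 were 903, 864, 733 and 624 in the settings with 0 on all 3 rats, in that order, and 631 without rat 24-4. The cause was not tested. The limma test called 0 proteasome genes under each of these settings.

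Level differences within rats kept their direction in 53 of 54 alternatives. The exception was alpha ring minus beta ring, -0.08 as reported, with a range on leaving out 1 rat from -0.20 (without rat 33) to 0.074 (without rat 24-4). Class levels stayed within 1 SD in 35 alternatives. The mitochondrial rescaling, which raises nuclear genes by construction, moved alpha ring to 6.43, beta ring to 6.51, 19S ATPases to 6.75, non-ATPases to 6.27 and 20S chaperones to 4.34 in log2(FPKM + 1), from 6.10, 6.18, 6.42, 5.94 and 4.03, and a mean over members gave 5.91 for the alpha ring and 5.75 for the non-ATPases.

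Class differences from the mean of the rats kept within their spread in 82 alternatives. Scaling to the constitutive 20S genes, chosen after seeing the data, turned the alpha ring in rat 12 from -0.16 to 0.029 and moved it in rat 24-4 to -0.072. It moved the ATPases to 0.17 in rat 12 and 0.0031 in rat 24-4, and the non-ATPases to 0.20 and -0.12. The mitochondrial rescaling moved the non-ATPases to 0.12 and -0.060. Each scaling multiplies all nuclear genes of a rat by the same factor, so such shifts arise by construction. The measured alpha ring genes also help to set the 20S scale. Why the factors differed between the rats was not tested. The immunoproteasome and PA28 genes kept their order of rats under both scalings.

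No paired analysis was possible because there was 1 group and thus no other group to pair with. The sign-flip comparisons are of genes within a rat. The planned comparison of Psme3 with Psme1 was not run, since Psme3 had no matched row. With 3 rats the exact sign-flip permutation test cannot go below p = 0.25. Depth limits the values of low genes such as Psmb11.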
